A study of Mus musculus with 12 samples.

Results

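The nuclear genes for the subunits of the 5 complexes of oxidative phosphorylation were followed in the liver during endoplasmic reticulum (ER) stress. Probesets that the platform annotation gives to exactly 1 gene were taken by the start of the gene symbol (Ndufa, Ndufb, Ndufc, Ndufs and Ndufv without Ndufaf, Sdha to Sdhd, Uqcr, Cox4 to Cox8, and Atp5), and each gene was represented by its brightest such probeset. This gave 86 genes of 18193 measured, read by 175 of 34945 probesets that name 1 gene: 36 of complex I, 8 of complex II, 8 of complex III, 17 of complex IV and 17 of complex V. The prefixes also take in a few genes that are not subunits of the complex they are counted with. Among them are the assembly factors Sdhaf1 to Sdhaf4, the supercomplex factor Cox7a2l, and Ndufa4, which is now placed in complex IV. Ndufa4l2, the paralog of Ndufa4, was counted with complex I as well. Cox7b has no probeset under this rule and was not analysed here.

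Atf6a-/- and wild-type mice were injected intraperitoneally with tunicamycin (TM) at 2 mg/kg, dissolved in dextrose (150 mM), or with the dextrose vehicle. TM blocks N-linked glycosylation in the ER, and Atf6a encodes the stress sensor ATF6α. Liver RNA was taken 8 h later, and each of the 4 groups (Atf6a-/- with TM, Atf6a-/- with vehicle, wild-type with TM, wild-type with vehicle) held 3 mice with 1 array each, 12 arrays in all. The knockout was of the whole body, the mice differed in age and sex, they had been fasted before sacrifice, and the RNA came from whole liver homogenate, so that hepatocytes and the other liver cells were read together.

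Oxidative phosphorylation takes electrons from NADH at complex I and from succinate at complex II, passes them through complex III and cytochrome c to oxygen at complex IV, and uses the proton gradient so formed to make ATP at complex V. Each complex has a catalytic or structural core and, in mammals, many small accessory subunits. The mitochondrial genome encodes some core subunits of every complex except the succinate dehydrogenase. The genes described here are in the nucleus, and their proteins are made in the cytosol and imported. In liver this machinery is fed by fatty acid oxidation and the citric acid cycle, and the coactivator PGC-1α (Ppargc1a) with the factors NRF1, GABP, YY1 and ERRα are known to drive its transcription.

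Values are log2 intensities. A difference of 1 is a doubling of signal, and since probes differ in how well they bind, the level of a probeset says little of how abundant a transcript is beside another. Levels were used across probesets only to mark dim and bright signal. A gene was called higher or lower at an adjusted p under 0.05 by limma, with Benjamini-Hochberg adjustment over all 45037 tested probesets, and a change of over 1.5-fold. By the brightest Atf6 probeset, Atf6 signal with vehicle was 7.03 to 7.79 in Atf6a-/- and 8.74 to 9.47 in wild-type livers. Under TM it was 9.76 to 10.50 in Atf6a-/- and 10.75 to 11.16 in wild-type livers, so this probeset was not silent in the knockout and which part of the transcript it reads was not analysed here. Of 10 ER stress genes, 10 were called higher with TM in Atf6a-/- and 9 in wild-type livers, against 13.1% and 8.92% of all genes. Y-linked genes had signal in 1 array of each group, so the groups held the same mix of sexes. Hepatocyte markers averaged 13.15 to 13.27 in Atf6a-/- TM, 13.08 to 13.12 in Atf6a-/- vehicle, 13.09 to 13.20 in wild-type TM and 12.98 to 13.08 in wild-type vehicle arrays.

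The upstream stretches of 4 members that fell in both genotypes (values below) are shown here, because sequence motifs of the factors named above are known from respiratory gene promoters. The first 3 are the members called lower in both genotypes whose stretch held the NRF1-type or ETS-type letters given here or the YY1 letters given below. Sdhaf4, which had the largest fall, held none of these. In the longer windows described below, Atp5k also held the ETS-type, Uqcr11 the NRF1-type and Sdhd the ERR-type letters. Sequences are from RefSeq on build GRCm38.p6, 5′ to 3′ on the strand of the gene, and end at the base before the annotated start. Capitals mark the NRF1-type motif GCGCATGCG in Atp5k (chr5:108434400-108434549, minus strand), which there reads on both strands and overlaps itself, and the ETS-type motif CCGGAAG, bound by the GABP family, in Sdhd (chr9:50603850-50603999, minus strand, in reverse) and Uqcr11 (chr10:80406822-80406971, minus strand). The Sdhaf4 stretch is chr1:24005641-24005790, minus strand.
Atp5k: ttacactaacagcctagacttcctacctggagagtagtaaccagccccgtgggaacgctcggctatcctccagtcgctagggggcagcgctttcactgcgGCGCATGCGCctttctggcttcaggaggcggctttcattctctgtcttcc
Sdhd: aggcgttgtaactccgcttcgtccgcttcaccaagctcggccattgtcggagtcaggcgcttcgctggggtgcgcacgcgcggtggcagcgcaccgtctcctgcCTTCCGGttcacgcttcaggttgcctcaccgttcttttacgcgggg
Uqcr11: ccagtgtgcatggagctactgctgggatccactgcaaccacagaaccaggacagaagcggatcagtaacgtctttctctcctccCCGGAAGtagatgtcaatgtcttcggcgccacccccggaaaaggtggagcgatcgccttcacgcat
Sdhaf4: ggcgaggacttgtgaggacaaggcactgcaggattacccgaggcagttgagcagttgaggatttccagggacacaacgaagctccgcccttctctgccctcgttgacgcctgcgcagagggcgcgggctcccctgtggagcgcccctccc

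Promoter windows of 250 bases before to 50 bases after a start were held for 71 of the 86 members, and were searched on both strands for exact letters. The ETS-type motif was in 20 of 71 members (28.2%), against 9.93% of all 27025 genes with windows. The NRF1-type motif was in 7 members (9.86%, against 1.95% of all genes), and AAGATGGCG, which holds the YY1 core, was in 6 (8.45%, against 1.64%). CCAAT, at 29 members (40.8%), was near the share of all genes (41.1%). The ER stress element, a CCAAT and a CCACG spaced by 9 bases, was in 0 of 71 members and in 0.137% of all genes, and TGATGNAA, a C/EBP-ATF composite site, was in 0 members and 4.51% of all genes. The ERR-type TCAAGGTCA was in 2 members (2.82%, against 0.466%), the cyclic AMP element TGACGTCA in 3 (4.23%, against 2.03%) and TATAAA in 9 (12.7%, against 15.7%). Among the members called lower with TM in Atf6a-/- livers, 7 of 22 with a window held the ETS-type motif, against 13 of the other 49. For the NRF1-type motif the counts were 2 of 22 and 5 of 49. These are matches of letters, and binding was not measured.

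With TM, transcripts of most members were lower in both genotypes, by small amounts. In Atf6a-/- livers 80 of 86 members had a negative log2 fold change, with a median of -0.38, against -0.10 over all 18193 genes. In wild-type livers 80 of 86 were likewise negative, with a median of -0.27, against -0.06 over all genes. Among genes with a mean level of at least 8, where 76 of the members lay, the median over all genes was 0.03 in Atf6a-/- and -0.02 in wild-type livers, and that of the members -0.41 and -0.27 in the same order. In bulk tissue, fewer cells of a type and less RNA per cell cannot be told apart.

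In single arrays, the median difference of the 86 members from their wild-type vehicle means was -0.48, -0.29 and -0.45 in the Atf6a-/- TM arrays and -0.20, -0.33 and -0.27 in the wild-type TM arrays. The vehicle arrays lay between -0.05 and 0.00 in Atf6a-/- and between 0.00 and 0.01 in wild-type livers. All TM arrays thus lay below all vehicle arrays, while the TM arrays of the genotypes overlapped through Atf6a-/- TM replicate 2. That array and wild-type TM replicate 1, the least lowered of their groups, were those with Y-linked signal. Without the 4 arrays with Y-linked signal, an alternative chosen after seeing the data, the median log2 fold change with TM was -0.43 in Atf6a-/- and -0.31 in wild-type livers.

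**Figure D1:**
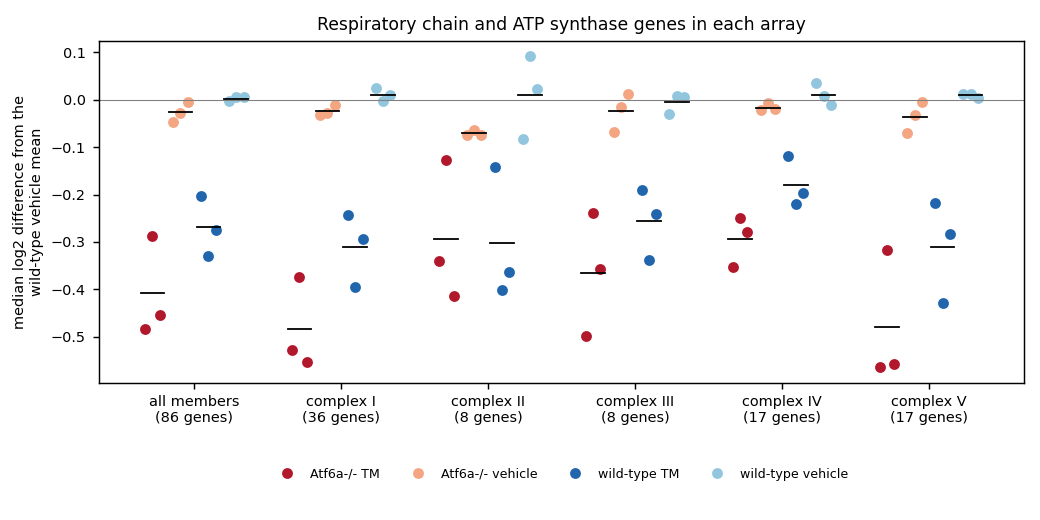
Median log2 difference of the members from their wild-type vehicle means (vertical axis), for all 86 members and for each complex, in each of the 12 arrays; points are arrays and lines are group means. TM arrays of both genotypes lie below the vehicle arrays for all members together, at -0.29 to -0.48 in Atf6a-/- and -0.20 to -0.33 in wild-type livers.

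In Atf6a-/- livers 23 of the 86 members (26.7%) were called lower with TM, where 8.21% of all genes were, and 0 were called higher, where 13.1% of all genes were. Cox6a2 and Cox7a2l passed the adjusted p alone on the higher side, below 1.5-fold. In wild-type livers 8 members (9.30%) were called lower, where 6.90% of all genes were, and 2 higher, where 8.92% were. The wild-type count at over 1.5-fold was thus close to the share of all genes. Among genes with a mean of at least 8, 16% were called lower in Atf6a-/- and 12.4% in wild-type livers. For the 76 members at that level the shares were 28.9% and 9.21%, so the wild-type share was below that of such genes. At an adjusted p under 0.05 and any fold, 52 members (60.5%) were lower and 2 higher in Atf6a-/- livers, against 17.5% and 17.6% of all genes, and 30 (34.9%) were lower and 3 higher in wild-type livers, against 11.9% and 12.1%. At a mean of at least 8, 65.8% of members were lower at any fold in Atf6a-/- livers, against 25% of genes. In wild-type livers these shares were 38.2% and 20.4%. All 3 TM arrays lay below all 3 vehicle arrays for 65 members in Atf6a-/- and 62 in wild-type livers, where this held for 29.6% and 22.5% of all genes. All 8 members called lower in wild-type livers were among the 23 of the knockout.

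**Figure D2:**
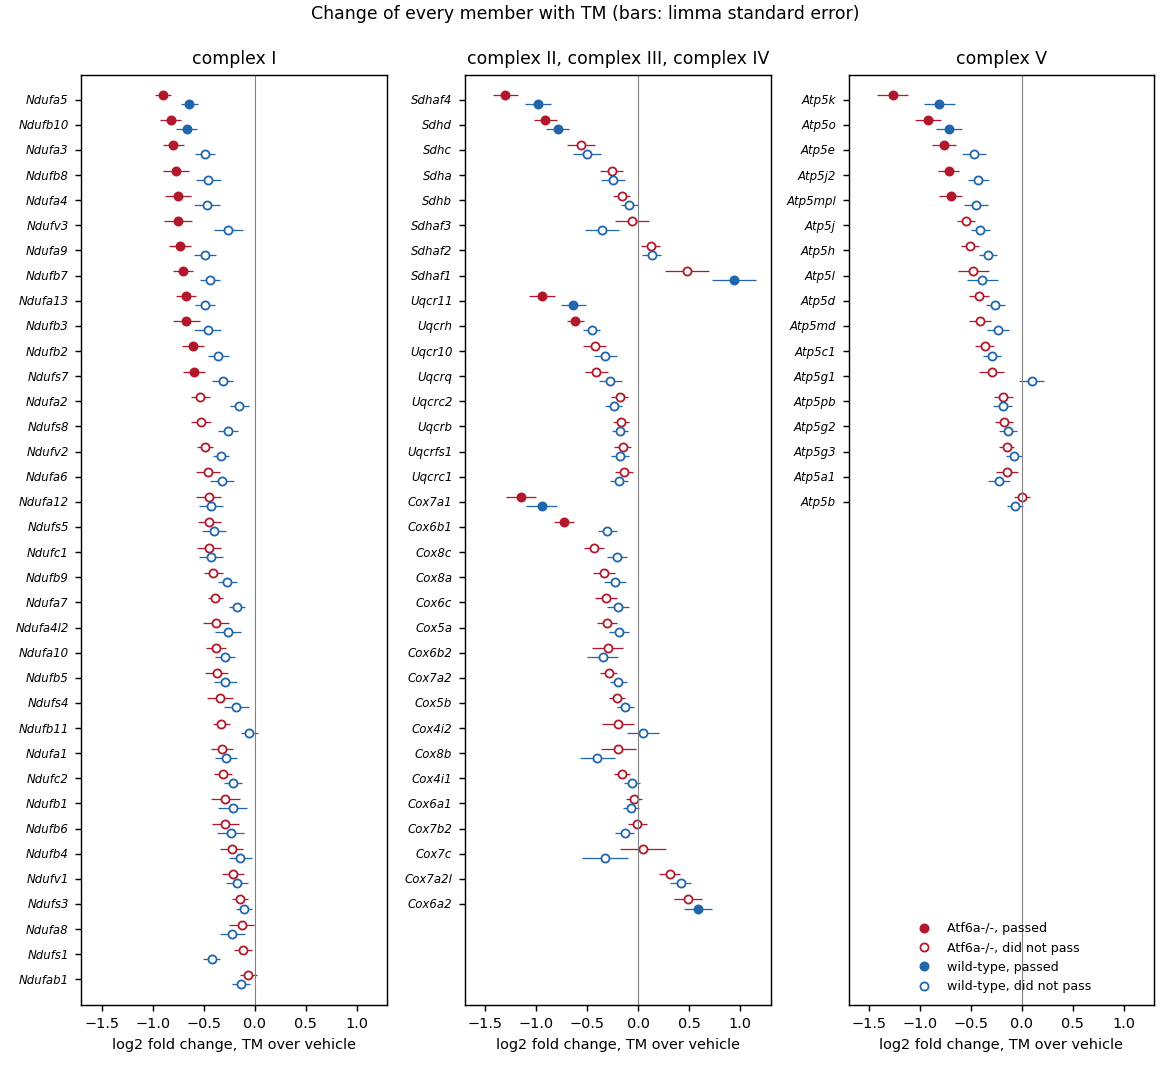
Log2 fold change of TM over vehicle (horizontal axis) for each of the 86 members, by complex, in Atf6a-/- (red) and wild-type (blue) livers; bars are limma standard errors, and filled points passed an adjusted p under 0.05 and over 1.5-fold. Filled points on the lower side number 23 in Atf6a-/- and 8 in wild-type livers, and 2 wild-type points on the higher side are filled.

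For complex I, the NADH dehydrogenase, all 36 members had a negative change in each genotype, with a median of -0.45 in Atf6a-/- and -0.29 in wild-type livers. In Atf6a-/- livers 12 (33.3%) were called lower, and 27 (75%) at any fold, against 8.21% and 17.5% of all genes. In wild-type livers 2 (5.56%) were called lower, near the 6.90% of all genes. At any fold 15 (41.7%) were lower there, against 11.9% of all genes. Ndufa5, an accessory subunit of the matrix arm, had levels of 10.33, 10.50 and 10.49 in Atf6a-/- TM, 11.34, 11.28 and 11.40 in Atf6a-/- vehicle, 10.71, 10.61 and 10.70 in wild-type TM, and 11.28, 11.34 and 11.32 in wild-type vehicle arrays. The TM arrays lay below the vehicle arrays in each genotype and those of Atf6a-/- below those of wild-type livers, while the vehicle groups overlapped. Its log2 fold change was -0.90 (standard error 0.083, adjusted p = 8.14e-06 by limma) in Atf6a-/- and -0.64 (0.083, adjusted p = 0.000157) in wild-type livers. Ndufb10, of the membrane arm, had levels of 10.59, 10.50 and 10.44 in Atf6a-/- TM, against 11.38, 11.34 and 11.29 in Atf6a-/- vehicle arrays. In wild-type livers it had 10.72, 10.48 and 10.85 with TM, against 11.44, 11.24 and 11.36 with vehicle. The change was -0.82 in Atf6a-/- and -0.67 in wild-type livers, and the wild-type call was lost (-0.57) without wild-type TM replicate 2, the lowest of its group.

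The other complex I members called lower in Atf6a-/- livers alone were accessory subunits, apart from Ndufa4 and the core subunit Ndufs7. Ndufa3 (-0.80), Ndufb8 (-0.77), Ndufa4 (-0.76), Ndufv3 (-0.75), Ndufa9 (-0.73), Ndufb7 (-0.70), Ndufa13 (-0.68), Ndufb3 (-0.67) and Ndufb2 (-0.61) passed there. Ndufa4l2, the paralog of Ndufa4, had -0.38 in Atf6a-/- and -0.26 in wild-type livers and was not called. The wild-type changes of the called members lay between -0.26 for Ndufv3 and -0.49 for Ndufa3 and Ndufa9. Ndufs7, an iron-sulfur subunit next to the quinone site, had -0.60 (adjusted p = 0.00103) in Atf6a-/- and -0.32 (adjusted p = 0.0575) in wild-type livers. Some of these calls rested on single arrays. The Ndufs7 call was lost without Atf6a-/- TM replicate 3 (-0.57) or Atf6a-/- vehicle replicate 1 (-0.51). Those of Ndufb3 (-0.55) and Ndufb2 (-0.50) were lost without Atf6a-/- TM replicate 1. That of Ndufb2 was also lost without Atf6a-/- vehicle replicate 2 (-0.57) or replicate 3 (-0.58), and that of Ndufv3 (-0.56) without Atf6a-/- TM replicate 3, where Ndufv3 was at 11.08 against 11.62 and 11.73 in the other TM arrays of its group.

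By the brightest probeset, none of the other core subunits of complex I measured here was called. Among further probesets, 2 of Ndufs8 (lowest -0.773) and 2 of Ndufv2 (lowest -0.625) were called lower in Atf6a-/- livers. The values below are of the brightest probesets. Ndufs8 (-0.53) and Ndufv2 (-0.49) passed the adjusted p in Atf6a-/- livers below 1.5-fold, as did Ndufv2 in wild-type livers (-0.33). The flavoprotein Ndufv1, where NADH is oxidized, had -0.21 in Atf6a-/- and -0.18 in wild-type livers, and Ndufs3 -0.14 and -0.10, none of which passed. Ndufs1, the largest iron-sulfur subunit, was the 1 member that passed the adjusted p on the lower side in wild-type but not in Atf6a-/- livers. It had levels of 10.83, 10.78 and 10.82 in Atf6a-/- TM and 10.93, 10.90 and 10.94 in Atf6a-/- vehicle arrays, and 10.75, 10.61 and 10.60 in wild-type TM and 10.93, 11.14 and 11.16 in wild-type vehicle arrays. The change was -0.11 (adjusted p = 0.377) in Atf6a-/- and -0.42 (adjusted p = 0.00446) in wild-type livers. The difference in response was 0.31 (standard error 0.12, adjusted p = 0.346) and did not pass. Ndufs1 was the 1 member whose 3 Atf6a-/- TM arrays all lay above the 3 wild-type TM arrays.

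Among the 8 genes counted with complex II, the succinate dehydrogenase, the catalytic pair was not called. The flavoprotein Sdha had -0.26 in Atf6a-/- and -0.25 in wild-type livers and the iron-sulfur subunit Sdhb -0.16 and -0.09, none of which passed. The membrane anchor Sdhd had levels of 11.01, 11.29 and 11.16 in Atf6a-/- TM and 12.13, 12.12 and 11.94 in Atf6a-/- vehicle arrays, and 11.44, 11.08 and 11.20 in wild-type TM and 11.95, 12.03 and 12.11 in wild-type vehicle arrays. It fell by 0.91 in Atf6a-/- (adjusted p = 7.53e-05) and by 0.79 in wild-type livers (adjusted p = 0.000342). The other anchor, Sdhc, had -0.56 and -0.50 in that order and passed the adjusted p below 1.5-fold.

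Of the assembly factors of complex II, Sdhaf4 was called lower in both genotypes and Sdhaf1 higher in wild-type livers. Sdhaf4, which binds the flavoprotein before assembly, had levels of 8.77, 9.07 and 8.69 in Atf6a-/- TM, 10.16, 10.22 and 10.06 in Atf6a-/- vehicle, 9.48, 9.14 and 9.45 in wild-type TM, and 10.27, 10.28 and 10.47 in wild-type vehicle arrays. Its change, -1.30 (standard error 0.12, adjusted p = 9.98e-06) in Atf6a-/- and -0.98 (0.12, adjusted p = 0.00013) in wild-type livers, was the largest fall of the 86 members in each genotype. Sdhaf1, which serves the iron-sulfur subunit, had levels of 8.99, 8.79 and 8.61 in Atf6a-/- TM and 8.30, 7.95 and 8.71 in Atf6a-/- vehicle arrays, and 9.14, 9.11 and 9.55 in wild-type TM and 8.22, 8.75 and 8.01 in wild-type vehicle arrays. It was not called in Atf6a-/- livers (0.48, adjusted p = 0.122), where 1 vehicle array overlapped the TM arrays, and was called higher in wild-type livers (0.94, standard error 0.22, adjusted p = 0.0088). Without the overlapping array, Atf6a-/- vehicle replicate 3, it was called in Atf6a-/- livers too (0.68, adjusted p = 0.0406). The difference in response was -0.46 (adjusted p = 0.651).

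Complex III, the cytochrome bc1 complex, had 2 of 8 members (25%) called lower in Atf6a-/- and 1 (12.5%) in wild-type livers, against 8.21% and 6.90% of all genes. Uqcr11, its smallest subunit, had levels of 11.22, 11.69 and 11.39 in Atf6a-/- TM and 12.26, 12.32 and 12.55 in Atf6a-/- vehicle arrays, and 11.87, 11.66 and 11.69 in wild-type TM and 12.34, 12.45 and 12.34 in wild-type vehicle arrays. The change was -0.95 (adjusted p = 0.000128) in Atf6a-/- and -0.64 (adjusted p = 0.00332) in wild-type livers. Uqcrh, the hinge protein that contacts cytochrome c1, fell by 0.62 (adjusted p = 0.00015) in Atf6a-/- livers. In wild-type livers it had -0.46 (adjusted p = 0.00205), below 1.5-fold. The Uqcrh call was lost without Atf6a-/- TM replicate 1 (-0.55). The Rieske iron-sulfur protein Uqcrfs1 and the core proteins Uqcrc1 and Uqcrc2 had changes of -0.14 to -0.18 in Atf6a-/- and -0.18 to -0.24 in wild-type livers, and none passed. Uqcr10 and Uqcrq, both small subunits, had -0.43 and -0.41 in Atf6a-/- livers, below 1.5-fold.

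Complex IV, cytochrome c oxidase, had the medians nearest to 0 of the 5 complexes, -0.21 in Atf6a-/- livers (as for the 8 genes counted with complex II) and -0.20 in wild-type livers, with 2 of 17 members (11.8%) called lower in Atf6a-/- and 1 (5.88%) in wild-type livers. These shares are near the 8.21% and 6.90% of all genes. Without the Sdhaf genes, the 4 left in complex II had medians of -0.41 in Atf6a-/- and -0.38 in wild-type livers. A mean under 6 was had by 6 of the 17 complex IV members, against 1 in complex I and 0 in the others. The part of these dim probesets in the complex IV medians was not tested. Cox4i1, the isoform used in liver, had -0.16 and -0.06, and Cox5a and Cox5b had -0.31 and -0.21 in Atf6a-/- and -0.19 and -0.13 in wild-type livers. None was called, although Cox5a passed the adjusted p in Atf6a-/- livers (0.0319). Cox6b1, on the face toward the intermembrane space, had levels of 12.42, 12.68 and 12.44 in Atf6a-/- TM and 13.24, 13.21 and 13.27 in Atf6a-/- vehicle arrays, and 13.07, 12.84 and 12.90 in wild-type TM and 13.24, 13.28 and 13.20 in wild-type vehicle arrays. The vehicle groups overlapped, and the TM groups did not overlap each other. The change was -0.73 (adjusted p = 0.000118) in Atf6a-/- and -0.30 (adjusted p = 0.0464) in wild-type livers.

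Several complex IV genes have isoforms of other tissues. Cox7a1, the heart and muscle isoform, was called lower in both genotypes, by -1.15 in Atf6a-/- and -0.95 in wild-type livers, at 3.960 to 4.004 in Atf6a-/- TM, 4.90 to 5.34 in Atf6a-/- vehicle, 4.41 to 4.69 in wild-type TM and 5.16 to 5.72 in wild-type vehicle arrays. The median of all probesets of an array was 4.98 to 5.11, so signal above background is not shown for Cox7a1. The 7 striated muscle markers averaged 4.35 to 4.48 in Atf6a-/- TM, 4.51 to 4.66 in Atf6a-/- vehicle, 4.44 to 4.58 in wild-type TM and 4.55 to 5.30 in wild-type vehicle arrays, and their part in the Cox7a1 result was not tested. Cox6a2, the muscle partner of Cox6a1, had 0.49 (adjusted p = 0.0192, below 1.5-fold) in Atf6a-/- livers and was called higher only just in wild-type livers (0.59, adjusted p = 0.00985). The wild-type call was lost without wild-type TM replicate 1 (0.57) or replicate 2 (0.47), or wild-type vehicle replicate 1 (0.54). The other Cox6a2 probeset had 0.10 in Atf6a-/- and 0.12 in wild-type livers and was not called. The liver isoforms Cox6a1, Cox7a2 and Cox8a had changes of -0.04, -0.29 and -0.34 in Atf6a-/- and -0.07, -0.20 and -0.23 in wild-type livers. Cox4i2, Cox6b2, Cox7b2, Cox8b and Cox8c, mostly isoforms of lung, testis or muscle, had changes from -0.43 to -0.01 in Atf6a-/- and -0.40 to 0.04 in wild-type livers, with none called. Cox7c, whose probeset was dim (mean 5.64), had 0.05 and -0.33, and was not called. Cox7a2l, which joins complexes III and IV, went up in both genotypes by 0.31 (adjusted p = 0.0456) in Atf6a-/- and 0.42 (adjusted p = 0.0146) in wild-type livers, below 1.5-fold.

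Complex V, the ATP synthase, had 5 of 17 members (29.4%) called lower in Atf6a-/- and 2 (11.8%) in wild-type livers, against 8.21% and 6.90% of all genes. The medians were -0.42 and -0.29. The members called were in the membrane part and the stalks. Atp5k (subunit e, of the dimer interface) had levels of 11.28, 11.92 and 11.27 in Atf6a-/- TM and 12.65, 12.77 and 12.85 in Atf6a-/- vehicle arrays, and 12.03, 11.88 and 12.07 in wild-type TM and 12.86, 12.85 and 12.70 in wild-type vehicle arrays. The change was -1.27 (standard error 0.15, adjusted p = 6e-05) in Atf6a-/- and -0.81 (0.15, adjusted p = 0.00236) in wild-type livers. Atp5o, the peripheral stalk subunit OSCP, had 10.81, 10.99 and 10.77 in Atf6a-/- TM and 11.75, 11.81 and 11.78 in Atf6a-/- vehicle arrays, and 11.19, 10.83 and 11.38 in wild-type TM and 11.91, 11.74 and 11.89 in wild-type vehicle arrays. It fell by 0.92 in Atf6a-/- and by 0.72 in wild-type livers, and the wild-type call was lost without wild-type TM replicate 2 (-0.56). The membrane subunits Atp5j2 (-0.72) and Atp5mpl (-0.70) and the central stalk subunit Atp5e (-0.77) were called in Atf6a-/- livers and had -0.43, -0.45 and -0.47 in wild-type livers. Atp5h, of the peripheral stalk, had -0.51 in Atf6a-/- and -0.34 in wild-type livers, below 1.5-fold.

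No subunit of the catalytic head of the ATP synthase was called. Atp5b, the catalytic β subunit, had levels of 13.55, 13.67 and 13.64 in Atf6a-/- TM and 13.58, 13.65 and 13.60 in Atf6a-/- vehicle arrays, and 13.65, 13.54 and 13.57 in wild-type TM and 13.67, 13.63 and 13.67 in wild-type vehicle arrays. Its groups overlapped in each genotype, with changes of 0.00 (standard error 0.077) and -0.07 (0.077). Atp5a1, the α subunit, had -0.15 and -0.23, which did not pass. Of the central stalk, the γ subunit Atp5c1 had -0.37 (adjusted p = 0.00968) in Atf6a-/- and -0.29 (adjusted p = 0.0412) in wild-type livers, below 1.5-fold. The other Atp5c1 probeset had -0.33 and -0.68 in the same order and was not called. The δ subunit Atp5d had -0.42 (adjusted p = 0.00593, below 1.5-fold) in Atf6a-/- and -0.26 (adjusted p = 0.0895) in wild-type livers. The 3 genes that encode the same mature c-ring subunit, Atp5g1, Atp5g2 and Atp5g3, had -0.30, -0.17 and -0.15 in Atf6a-/- and 0.10, -0.14 and -0.08 in wild-type livers, with none passing.

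**Figure D3:**
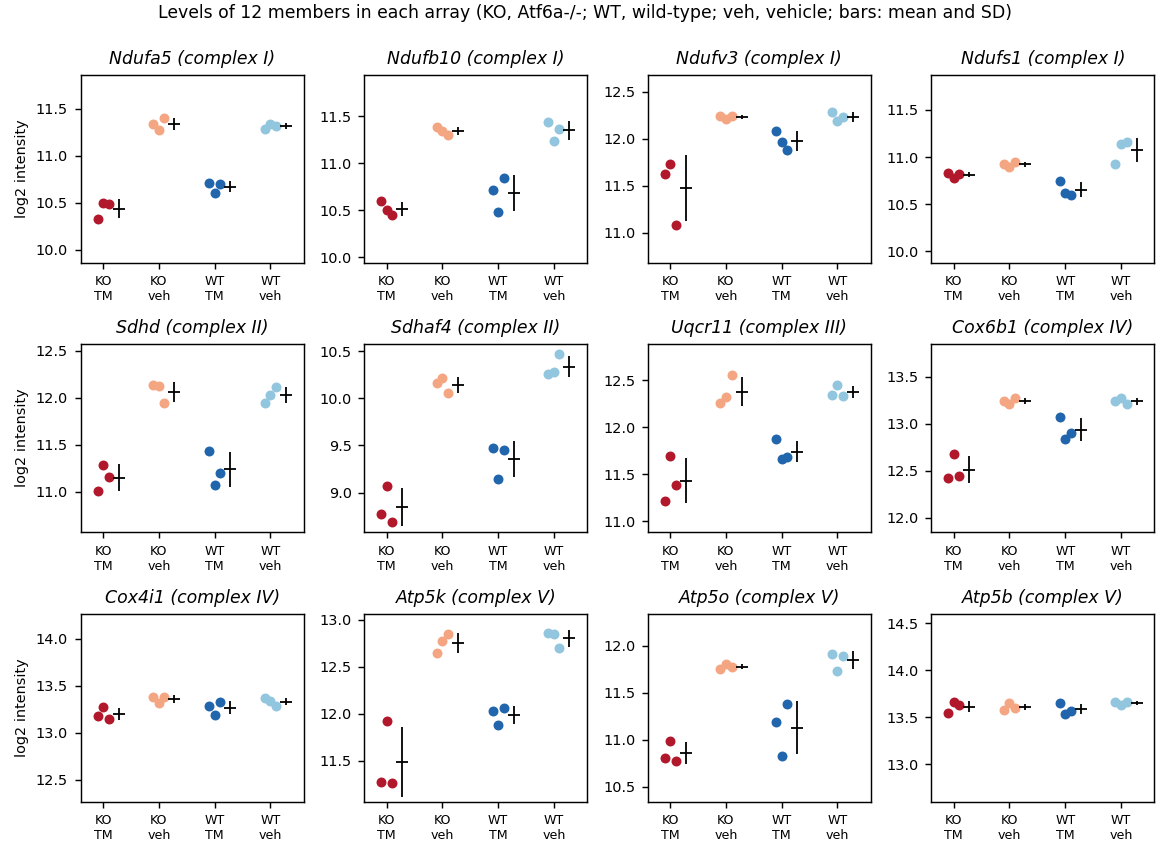
Log2 intensity (vertical axis, 2 units high in each panel) of 12 members in each array of the 4 groups, with the group mean and SD beside the points. Ndufa5, Sdhaf4 and Atp5k are lower in all 3 TM arrays of either genotype than in its vehicle arrays, whereas the groups overlap for Atp5b.

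Over the complexes, a smaller share was called among a list of catalytic and other central subunits than among the rest, a difference that was not tested. Of 19 such subunits (Ndufs1, 3, 7 and 8, Ndufv1 and 2, Sdha to Sdhd, Uqcrfs1, Uqcrc1 and 2, Cox4i1, Cox5a, Cox5b, Atp5a1, Atp5b and Atp5c1), 2 were called lower in Atf6a-/- livers, Sdhd and Ndufs7, and 1 in wild-type livers, Sdhd. Of the other 67 members, 21 were called lower in Atf6a-/- and 7 in wild-type livers. The 67 include Cox7a2l and the assembly factors Sdhaf1 to Sdhaf4, of which Sdhaf4 was called lower in both genotypes. Of all genes, 8.21% were called lower in Atf6a-/- and 6.90% in wild-type livers. These counts are by the brightest probeset. In Atf6a-/- livers further probesets were called lower for Ndufs8 and Ndufv2 of the list and Ndufs4 of the others, whose brightest were not. The median change was -0.21 for the list and -0.41 for the others in Atf6a-/- livers, and -0.23 and -0.29 in wild-type livers. The list holds Cox4i1, Cox5a and Cox5b, although the catalytic core of complex IV is encoded in the mitochondrial genome. With these 3 moved to the others, 2 of 16 against 21 of 70 were called lower in Atf6a-/- livers, with medians of -0.20 and -0.40, and 1 of 16 against 7 of 70 in wild-type livers, with medians of -0.25 and -0.28. The brightness of the probesets differed along with this: of the 11 members with a mean over 13, 1 was called lower in Atf6a-/- livers and the median was -0.17, against 21 of 65 and -0.43 at means of 8 to 13. In wild-type livers the medians were -0.18 and -0.29. Whether signal compression in bright probesets has a part in the changes of the listed subunits was not tested.

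Where a member had several probesets, the others mostly moved like the brightest. Of 89 further probesets of 51 members, 79 had the same sign of change as the brightest in Atf6a-/- livers and 79 in wild-type livers, and no member had probesets called in opposite directions. Of the genes that the rule left out because their probesets name several genes, Ndufs6 and Ndufb4 had probesets called lower in Atf6a-/- livers. The probeset shared by Ndufs6 and Ndufs6b had -0.68 (adjusted p = 0.000273) in Atf6a-/- and -0.46 (adjusted p = 0.00585) in wild-type livers. The 2 shared by Ndufb4, Ndufb4b and Ndufb4c had -0.68 and -0.79 in Atf6a-/- and -0.46 and -0.44 in wild-type livers, whereas the dim probeset that names Ndufb4 alone (mean 3.97) had -0.23 and -0.14. The brighter probeset shared by Ndufa11 and Ndufa11b had -0.54 (adjusted p = 0.00271, below 1.5-fold) in Atf6a-/- and -0.22 (adjusted p = 0.217) in wild-type livers, and the dimmer had -0.16 and -0.04, which did not pass.

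The question of whether loss of ATF6α changed the response was addressed by the contrast of genotypes under TM and by the difference in response. Under TM, 0 of 86 members were called between Atf6a-/- and wild-type livers in either direction, where 2.89% of all genes were higher and 1.53% lower in Atf6a-/- livers. An unadjusted p under 0.05 was had by 24 members (27.9%), against 18.7% of all genes. At a mean of at least 8 the shares were alike, 30.3% of members and 29.5% of genes. At any fold, 0 were higher and 2 lower, against 4.11% and 2.07% of all genes. These were Cox6b1 (-0.43, standard error 0.096, adjusted p = 0.0261) and Sdhaf4 (-0.51, standard error 0.12, adjusted p = 0.037). For Sdhaf4 all Atf6a-/- vehicle arrays also lay below all wild-type vehicle arrays, by -0.19, which was not called. Its difference in response was -0.32 (adjusted p = 0.551 by limma). Nevertheless 78 of 86 members were lower in Atf6a-/- livers, with a median of -0.14 against -0.02 over all genes, and for 27 members all Atf6a-/- TM arrays lay below all wild-type TM arrays, where this held for 10.2% of all genes.

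The count of 0 under TM depended on single arrays. Without Atf6a-/- TM replicate 2 there were 3 members called lower in Atf6a-/- livers: Atp5k (-0.72, adjusted p = 0.00293), Ndufv3 (-0.62, adjusted p = 0.0283) and Sdhaf4 (-0.63, adjusted p = 0.0147). Sdhaf4 was called without wild-type TM replicate 2 (-0.62, adjusted p = 0.0305). The dim probeset of Cox7a1 (-0.59, adjusted p = 0.0508 over all arrays) was called without wild-type vehicle replicate 2 or replicate 3 or Atf6a-/- vehicle replicate 3, which leave its change as it is and alter the estimate of spread.

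With vehicle, 0 members were called higher or lower by limma, as were 0% of all 18193 genes, 1 member (1.16%, against 3.88% of all genes) had an unadjusted p under 0.05 (Cox7a1, -0.38) and the median was -0.03. For the difference in response to TM, 0 members were called, where 1.06% of all genes were higher and 0.748% lower. An unadjusted p under 0.05 was had by 7 members (8.14%), below the 14.3% of all genes. Cox6b1 had the largest statistic (-0.43, standard error 0.14, adjusted p = 0.201). The fall was larger in Atf6a-/- livers for 70 of 86 members, with a median difference of -0.11 against -0.02 over all genes. Without Atf6a-/- TM replicate 2, Atp5k was called (-0.67, adjusted p = 0.0423) and the median was -0.19. By complex the median difference in response was -0.15 for complex I, -0.07 for II, -0.05 for III, -0.10 for IV and -0.16 for V.

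**Figure D4:**
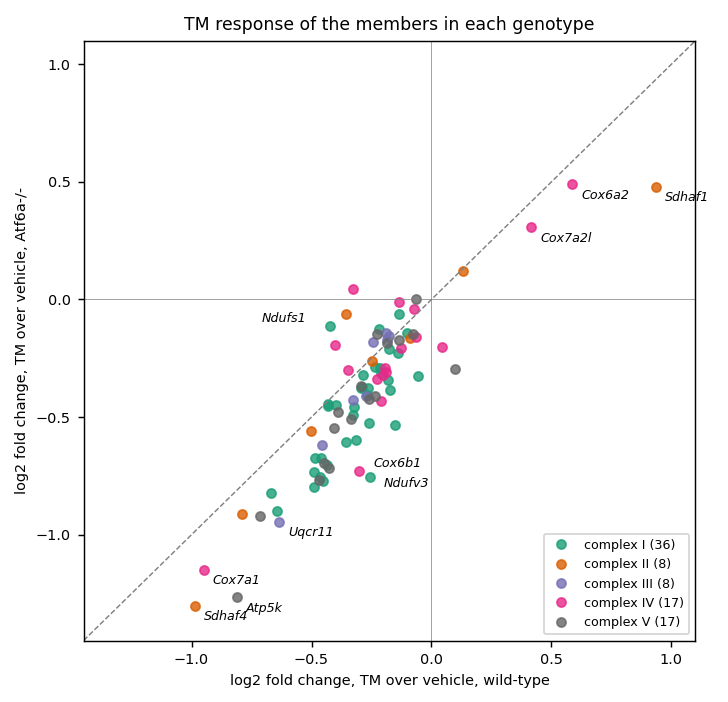
Log2 fold change of TM over vehicle in Atf6a-/- livers (vertical axis) against that in wild-type livers (horizontal axis) for the 86 members, coloured by complex, with the dashed line of equal change. Of the 86 points, 70 lie below the line, and Sdhaf4, Cox7a1 and Atp5k lie farthest down.

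The changes in the 2 genotypes, which come from separate arrays, were ordered alike over the members, with Pearson's r = 0.87 and Spearman's rho = 0.81 over 86 members. Members share arrays and are not replicates, so no test was made of this.

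Genes that act with the respiratory chain were counted beside it. Over all genes, 8.21% were called lower and 13.1% higher in Atf6a-/-, and 6.90% and 8.92% in wild-type livers. Of 18 assembly factors of complex IV, 6 were called lower and 1 higher in Atf6a-/-, and 3 lower and 0 higher in wild-type livers. The 3 were Pet100 (-1.75 in Atf6a-/- and -1.31 in wild-type livers), Coa6 (-1.27 and -1.46) and Cox20 (-0.98 and -0.84). Cox19 (-0.71), Coa3 (-0.64) and Coa5 (-0.59) were called lower and the copper chaperone Sco2 (0.63) higher in Atf6a-/- livers alone. In wild-type livers these had -0.59, -0.33, -0.41 and 0.12, of which Coa5 passed the adjusted p below 1.5-fold. Of 14 assembly factors of complex I, 3 were lower and 1 higher in Atf6a-/- and 1 lower in wild-type livers, with Acad9 called in both (-1.12 and -0.94). Ndufaf5 (-1.03) and Ndufaf6 (-0.66) were called lower and Ndufaf4 (0.74) higher in Atf6a-/- livers alone. In wild-type livers these had -0.58, -0.50 and 0.27, and Ndufaf5 and Ndufaf6 passed the adjusted p below 1.5-fold. Of 6 for complex III, Ttc19 was higher in both genotypes (1.07 and 0.65). Uqcc2 was called lower in Atf6a-/- livers (-0.71) and had -0.52 (adjusted p = 0.00298, below 1.5-fold) in wild-type livers. Of 4 genes for assembly and inhibition of complex V, Atpif1, the ATPase inhibitor, was lower in both (-0.90 and -0.73). No gene of these lists or those of the next paragraph was called for the difference in response. Of all genes, 1.06% were higher and 0.748% lower there.

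The electron carriers, transport proteins and enzymes that work with the chain had calls in both directions. Among 12 genes for cytochrome c, cytochrome c1 and ubiquinone synthesis, Coq5 fell in both genotypes (-0.82 in Atf6a-/- and -0.65 in wild-type livers), and Coq8b was higher in both (0.79 and 1.36). Pdss2 was called lower in wild-type livers (-0.65) and had -0.55 (adjusted p = 0.0269, below 1.5-fold) in Atf6a-/- livers. Cycs and Cyc1 were not called, at 0.09 and -0.25 in Atf6a-/- livers. Cyc1, which encodes cytochrome c1, is itself part of complex III but lies outside the prefixes. Calls on the lower side made up 8.33% of this list in Atf6a-/- and 16.7% in wild-type livers, against the 8.21% and 6.90% of all genes. Among 6 carriers, Slc25a10 (-0.65) and Slc25a11 (-0.61) were called lower in Atf6a-/- livers. In wild-type livers they had -0.425 and -0.50, and Slc25a11 passed the adjusted p below 1.5-fold. The ADP/ATP translocase Slc25a4 was called lower in wild-type livers (-0.63), with -0.20 in Atf6a-/- livers. Its wild-type vehicle arrays were at 8.245, 7.698 and 8.71, against a mean of 7.696 in Atf6a-/- vehicle arrays. The brighter Slc25a5 had 0.01 in Atf6a-/- and -0.09 in wild-type livers and was not called. Genes called lower were 33.3% of this short list in Atf6a-/- and 16.7% in wild-type livers. Among 12 citric acid cycle enzymes, citrate synthase (Cs) was higher in both, by 1.48 in Atf6a-/- and 1.06 in wild-type livers. Suclg2 was called lower in Atf6a-/- livers (-0.74). Dlst was called lower in wild-type livers (-0.89) and had -0.485 (adjusted p = 0.0559) in Atf6a-/- livers. Calls on each side made up 8.33% of this list in each genotype. The median of this list was -0.09 in Atf6a-/- and -0.05 in wild-type livers.

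Regulators of respiratory genes were called in both directions. Of 15, 8 were called higher (53.3%) and 2 lower (13.3%) in Atf6a-/- livers, against 13.1% and 8.21% of all genes. In wild-type livers 4 were called higher (26.7%) and 3 lower (20%), against 8.92% and 6.90%. Between the genotypes under TM, 6 (40%) were called higher in Atf6a-/- livers and 0 lower, against 2.89% and 1.53% of all genes. Ppargc1a, the coactivator, had levels of 5.06, 4.13 and 4.09 in Atf6a-/- TM and 7.63, 7.61 and 7.12 in Atf6a-/- vehicle arrays, and 3.95, 4.55 and 4.88 in wild-type TM and 7.76, 6.69 and 7.62 in wild-type vehicle arrays. It fell to near or below the array median of all probesets, with a log2 fold change of -3.03 (adjusted p = 2.68e-05) in Atf6a-/- and -2.90 (adjusted p = 5.59e-05) in wild-type livers. Ppara, a nuclear receptor that works with it, had -1.65 and -1.67 and was called lower in both. Esrra, which encodes ERRα, had -0.30 (adjusted p = 0.0497) in Atf6a-/- and -0.10 in wild-type livers. Ppargc1b, the relative of Ppargc1a, had -0.71 (adjusted p = 0.0628) in Atf6a-/- livers and was called lower in wild-type livers (-1.80), and was higher by 1.07 in Atf6a-/- than in wild-type livers under TM (adjusted p = 0.0402).

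Several factors for the motifs counted above were called higher with TM, mostly in Atf6a-/- livers. Nrf1 had levels of 7.56, 7.58 and 7.51 in Atf6a-/- TM and 6.45, 6.08 and 6.58 in Atf6a-/- vehicle arrays, and 6.78, 6.69 and 6.71 in wild-type TM and 6.261, 6.503 and 6.355 in wild-type vehicle arrays. The change was 1.18 (adjusted p = 1.66e-05) in Atf6a-/- and 0.36 (adjusted p = 0.0604) in wild-type livers. Gabpa (0.83 and 0.64) was called in both genotypes, and Gabpb1 (0.92), Yy1 (1.01) and Sp1 (0.79) in Atf6a-/- livers. The PGC-1-related coactivator Pprc1 (2.84 and 1.87), Tfb1m (1.57 and 1.76) and Myc (3.320 and 1.502) were called higher in both. Tfam, which packages and transcribes mitochondrial DNA, had 0.01 in Atf6a-/- and -0.52 (adjusted p = 0.00159) in wild-type livers, below 1.5-fold.

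**Figure D5:**
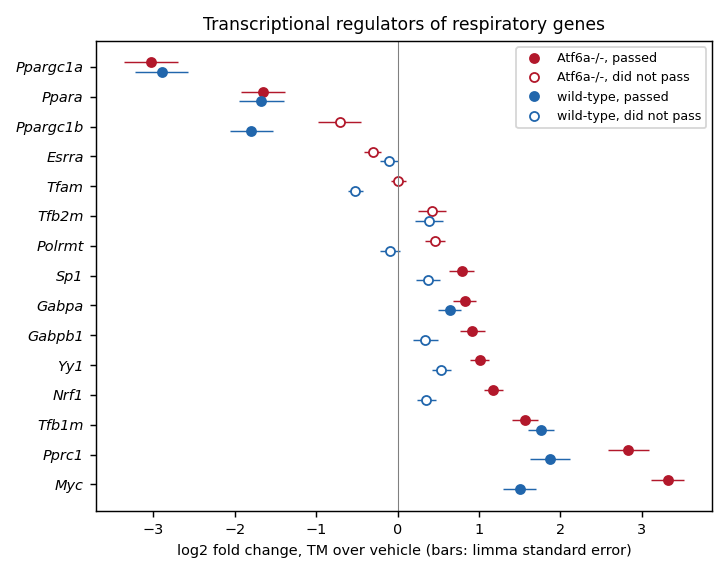
Log2 fold change of TM over vehicle (horizontal axis) of 15 regulators of respiratory genes in Atf6a-/- (red) and wild-type (blue) livers; bars are limma standard errors, and filled points passed an adjusted p under 0.05 and over 1.5-fold. Ppargc1a and Ppara lie at -1.65 or lower in both genotypes, and Tfb1m, Pprc1 and Myc at 1.502 or higher.

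Markers of other liver cells and of RNA quality were read beside these results. The shares of all genes called lower were 8.21% in Atf6a-/- and 6.90% in wild-type livers, and those called higher 13.1% and 8.92%. The 6 Kupffer cell markers averaged 8.61 to 9.15 in Atf6a-/- TM, 9.16 to 9.80 in Atf6a-/- vehicle, 9.06 to 9.35 in wild-type TM and 9.04 to 9.90 in wild-type vehicle arrays, and 3 were called lower in Atf6a-/- and 0 in wild-type livers. The 5 stellate cell markers averaged 7.97 to 8.28 in Atf6a-/- TM, 8.42 to 8.70 in Atf6a-/- vehicle, 8.11 to 8.37 in wild-type TM and 8.31 to 9.03 in wild-type vehicle arrays. The 4 cholangiocyte markers averaged 5.12 to 5.26 in Atf6a-/- TM, 5.48 to 5.64 in Atf6a-/- vehicle, 5.29 to 5.33 in wild-type TM and 5.51 to 5.61 in wild-type vehicle arrays, and the 4 lymphocyte markers 5.09 to 5.17, 5.35 to 5.59, 5.13 to 5.25 and 5.32 to 5.77 in the same order. The 5 liver endothelium markers averaged 8.65 to 8.83 in Atf6a-/- TM, 8.40 to 8.91 in Atf6a-/- vehicle, 8.71 to 8.86 in wild-type TM and 8.44 to 9.47 in wild-type vehicle arrays, so that the groups overlapped, with 1 called higher in Atf6a-/- and 1 lower in wild-type livers. The cholangiocyte and lymphocyte lists are near the array median of all probesets, and each was lower in all TM arrays than in all vehicle arrays of either genotype. The part of other cell types in the changes of the members was not tested. The difference of 3′ and 5′ signal of the actin control was 0.74 to 1.05 in Atf6a-/- TM, 0.90 to 1.07 in Atf6a-/- vehicle, 0.80 to 0.98 in wild-type TM and 0.90 to 0.92 in wild-type vehicle arrays. With the mean 3′ to 5′ difference of actin and Gapdh in the fit, an alternative chosen after seeing the data, 24 members were called lower in Atf6a-/- and 8 in wild-type livers.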

How the data were processed

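The 12 arrays (Affymetrix, 1 colour) were used as the deposited log2 values, which the authors made by RMA. The labels name affy and limma, and no source used here gives versions. RMA corrects background, quantile normalizes all arrays together and summarises each probeset. Of 45101 probesets, 64 controls were left out of the tests. The platform annotation names 1 gene for 34945, several for 932 and none for 9160. With R 4.3.3 and limma 3.58.1, the 4 group means were estimated together over the 12 arrays (8 residual and 4.25 prior degrees of freedom), for 5 contrasts. The procedure was tested on simulated data with larger changes than most members had, so detection of changes of their size was not tested. The members, gene lists and motifs were chosen with earlier results of these data known.

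Named with values were core subunits, isoform sets, members called in any contrast, the 2 members per complex with the largest statistic, and called genes of the lists. Of 15 regulators all were plotted, and the mitochondrial DNA transcripts, on 0 probesets here, were not analysed. Members were matched to RefSeq by gene ID (86 for positions, 71 for promoters). Replicate numbers did not pair the animals (18 pairs, r -0.54 to 0.46, 6 over 0.1). The alternatives were other normalizations, centring, covariates, weights, filters, thresholds, estimation, probeset choices, the methods' t-test and leaving out each array. Precision is limited by having 3 arrays a group, with which an exact permutation p for 1 value cannot go under 0.1.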

Additional observations from a re-analysis of the deposited data

Results flagged for a closer look

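The response to TM differed between the genotypes by limma's test of the difference for 2 of the 15 regulators and for 0 of the 86 members. Nrf1 rose more in Atf6a-/- livers, by 0.82 on the log2 scale (standard error 0.17, adjusted p = 0.0373), and all 3 Atf6a-/- TM arrays lay above all other arrays. Myc rose more in Atf6a-/- livers as well, by 1.82 (standard error 0.29, adjusted p = 0.00923), with levels of 9.83 to 10.80 in Atf6a-/- TM arrays, against 8.15 to 8.41 in wild-type TM arrays. Outliers within groups were not looked for, since a group holds 3 arrays.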

How the results depend on the processing

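The median change of the members was negative in 119 of 120 alternative values over the 5 contrasts, the exception being 0.03 with vehicle. It ranged from -0.44 to -0.30 with TM in Atf6a-/- and from -0.32 to -0.22 in wild-type livers. All 1041 alternative values of called members, and of Cox6b1 and Sdhaf4 under TM, kept their sign. Members lower with TM in wild-type livers numbered 30 with no fold threshold, 0 at 2-fold and 5 by the methods' t-test after Benjamini-Hochberg adjustment, against 8. In Atf6a-/- livers they numbered 52 and 3 at those thresholds, against 23. Members higher in wild-type livers numbered 1 when arrays were centred on Btf3 and Ppia, with a covariate of Y-linked signal minus Xist, with the mean of all probesets or with the 3′ minus 5′ covariate, and 0 at 2-fold or by the adjusted t-test, against 2. In Atf6a-/- livers they numbered 2 with no fold threshold and 1 without the 4 arrays with Y-linked signal, against 0. The Atf6a-/- median moved beyond the replicate spread to -0.44 with centring and to -0.30 when _s_at, _x_at and _a_at probesets were dropped, where 70 members are left. Members lower in Atf6a-/- than wild-type livers under TM numbered 1 with the Y-linked covariate, array weights, unadjusted p, trend and robust estimation, only the arrays of the contrast, the mean of all probesets, the unadjusted t-test, or when the 4 Y-positive arrays were dropped, and 2 with no fold threshold, against 0. The cause was not tested. The settings with the 3′ minus 5′ covariate and without Y-positive arrays were chosen after seeing the data.

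Leaving out single arrays gave 20 to 26 members lower and 0 to 1 higher with TM in Atf6a-/- livers, 6 to 8 lower and 1 to 2 higher in wild-type livers, 0 to 3 lower between the genotypes under TM and 0 to 1 lower in the difference in response. The medians ranged from -0.43 to -0.33, -0.32 to -0.22, -0.208 to -0.103 and -0.185 to -0.081 in the same order of contrasts. Without any single array 0 members were higher in the last 2 contrasts, and 0 were called with vehicle, where the median ranged from -0.04 to -0.02. With the number of the animal as a replicate block, 23 members were lower and 0 higher in Atf6a-/- and 8 lower and 2 higher in wild-type livers, and the block changed no other call.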
